A study of Mus musculus with 6 samples.

Results

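The genes described here are the mouse DNA sensors of the Ifi200 and Aim2 family together with the cGAS and Sting genes. They were chosen by name: Ifi202b, Ifi203, Ifi204, Ifi207, Ifi209, Ifi211, Mndal and Aim2 of the Pyhin gene cluster, Cgas (listed as Mb21d1) and Tmem173, the gene for Sting. All 10 had a row among the 55401 genes of the count table, and 9 had enough reads to be tested among 14661 genes. The RNA was from ADC106, a mouse line labelled as coming from an angiosarcoma tumor. One group received a negative-control mimic labelled NC (genotype label WT) and the other an miR-497 mimic (genotype label miR-497 overexpression), each at 12.5 nM and each harvested after 3 days, with 3 libraries per group. A mimic is a short synthetic RNA duplex that loads its guide strand into Argonaute. All cells were transfected; untransfected cells were not analysed here. The labels do not say whether the libraries of a group came from separate cultures, so p-values measure only the spread between these libraries, which may be technical.

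Cells recognise DNA in the cytosol as a sign of infection or damage. Cgas binds double-stranded DNA and makes the cyclic dinucleotide cGAMP, which activates Sting (Tmem173) on the endoplasmic reticulum; Sting then brings together the kinase Tbk1 and the transcription factor Irf3, and type I interferon is made. Many Pyhin proteins, though not all, pair a DNA-binding HIN domain with a protein-binding pyrin domain. Aim2 uses its pyrin domain to recruit Pycard and caspase-1 into an inflammasome, and Ifi204 acts in the nucleus and cytosol upstream of Sting. Most Ifi200 genes were named for their induction by interferon, so they stand downstream of the interferon response, and Ifi204 stands upstream of it as well. They lie side by side in a tandem cluster made by gene duplication.

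The total counts ran from 25777676 to 36159499 per library. All 15 endothelial markers listed had a mean above 1 CPM (read counts set to a common library size, after TMM scaling), and their summed level was 10695 to 11423 CPM in NC libraries and 10342 to 10824 CPM in miR-497 libraries. Single endothelial markers moved, 8 of them higher and 5 lower, from Emcn at 2.05-fold higher to Egfl7 with a log2 difference of -0.94. Over all 14661 tested genes 23.8% were called higher and 26.0% lower at an edgeR adjusted p under 0.05. These shares belong beside every marker count in this paragraph. Ifi200 genes and Aim2 are well known from macrophages, so 13 leukocyte markers were summed as well. They reached 21.05 to 22.1 CPM in NC and 25.7 to 30.8 CPM in miR-497 libraries. Of these markers, 5 were tested, 1 was higher and 0 were lower. The higher one was Cd68, with means of 8.25 CPM in NC and 17.5 CPM in miR-497 libraries (2.12-fold, edgeR adjusted p = 9.7e-07). Fcer1g lay at 8.46 and 7.61 CPM and was not called. Cd68 and Fcer1g made up most of the sum. Tyrobp and Cd3e were at 0 in all 6 libraries. Itgam was listed at 0 too, but 68.7% of its exon bases overlap Gm49368 on the same strand, so that value says nothing of its level. The 8 fibroblast markers summed to 309 to 329 CPM in NC and 451 to 547 CPM in miR-497 libraries, with 2 higher and 3 lower of 6 tested and Lum at 0, and the 6 epithelial markers to at most 4.88 CPM. The part of these other cell types in the values below was not tested. In bulk RNA, fewer cells of a type and less RNA per cell cannot be told apart.

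The sequence through which miR-497 finds its targets is shown first, because the 3' UTRs of the members were searched for matches to its seed. RefSeq gives the mature mouse strand as below, with the seed (bases 2 to 8) in capitals; the labels do not give the sequence of the mimic itself.
mmu-miR-497a-5p: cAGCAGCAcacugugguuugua
A site is TGCTGCT (called 8mer when an A follows) or GCTGCTA in the longest annotated 3' UTR. In the Ifi200 genes none was found in that UTR, the only part searched: 0 sites were found in Ifi202b, Ifi203, Ifi204, Ifi207, Ifi209, Ifi211 and Mndal, and 0 in Cgas. Aim2 had 1 site, at bases 41 to 47 of a 3' UTR of 1022 bases, shown with the match in capitals.
Aim2: ctgaagaatcctgaTGCTGCTccttgaa
Tmem173 had 1 site, an 8mer, in a 3' UTR of 826 bases. A site was present in 28.1%, and an 8mer in 4.61%, of the 12860 tested genes that have an annotated 3' UTR. Their median log2 fold changes were -0.17 with a site, -0.28 with an 8mer and 0.02 without a site. A match is a description of the letters and not evidence of binding.

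The other sequences shown are from promoters, because 8 of the 9 tested members moved down together and 1 moved up. The 300-base promoters in the RefSeq table (GRCm38.p6; 250 bases before and 50 after the start) were searched on both strands for GAAA, any 2 bases and GAAA again, the core of the interferon-stimulated response element that Stat2 and Irf9 bind. It was found in 9 of the 12 Pyhin genes in the table (75%), against 3.44% of all 32851 promoters. The first share is per gene, counting a match in any promoter of the gene, and the second is per promoter. The duplicated genes share sequence, so they are not 9 separate observations. The windows are given in the direction of each gene, with the match in capitals. The matches shown began between base -134 (Ifi205) and base -35 (Ifi203), counted from the RefSeq start to which the promoter belongs.
Ifi207: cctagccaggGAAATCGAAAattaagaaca
Ifi211: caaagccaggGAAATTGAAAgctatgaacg
Ifi203: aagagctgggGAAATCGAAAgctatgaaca
Mndal: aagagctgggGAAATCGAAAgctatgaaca
Ifi205: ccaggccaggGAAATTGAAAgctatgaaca
Ifi206: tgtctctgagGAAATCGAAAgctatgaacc
Ifi208: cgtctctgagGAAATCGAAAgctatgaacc
Ifi213: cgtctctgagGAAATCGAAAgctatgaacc
Ifi214: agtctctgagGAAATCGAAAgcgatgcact
The windows of Ifi203 and Mndal were identical over all 30 bases, as were those of Ifi208 and Ifi213. The windows of Ifi206, Ifi208 and Ifi213 had 29 or 30 of 30 bases in common. Ifi207 carried the same 10-base core as Ifi203 and Mndal, but the bases after it differed, and 17 to 24 of its 30 bases matched the other windows. The longer word GAAATNGAAAGCTATGAAC, read from the windows of Ifi203 and Ifi211 themselves, was found in 7 of the 32851 promoters (0.0213%), all of them Pyhin genes: Ifi203, Ifi205, Ifi206, Ifi208, Ifi211, Ifi213 and Mndal. Since the word came from these duplicated genes, its presence in them is a description of their likeness. It was not found in the promoters of Ifi207, which rose, or of Ifi209, Aim2 and Cgas, which fell. Nor was it found in those of Ifi202b and Ifi214, which had too few reads to be tested. The part of this word in the changes was not tested. Mndal and Ifi205 each held 1 further match to the core as its reverse complement.

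Ifi204, Ifi203-ps and Tmem173 were not searched. The promoters of Ifi209, Aim2, Ifi202b and Cgas held 0 matches to the core in these windows. The Aim2 promoter belongs to the RefSeq start, which lies 69725 bases from the outermost start in GENCODE M21, and the 2 RefSeq starts of Mndal lie 62304 and 62533 bases from theirs. Ifi203 also had 2 RefSeq starts. Its window shown belongs to the start that lies 180 bases from the outermost one. The promoter at the outermost start of Ifi203 held 0 matches. The interferon-gamma-type word TTCNNNGAA was found in 1 of the 12 Pyhin genes, Ifi202b (8.33%, against 8.30% of all promoters). Whole promoters are given for the member that rose, the Pyhin gene with the largest fall, and Aim2. That of Ifi207 is chr1:173741760-173742059, minus strand.
Ifi207: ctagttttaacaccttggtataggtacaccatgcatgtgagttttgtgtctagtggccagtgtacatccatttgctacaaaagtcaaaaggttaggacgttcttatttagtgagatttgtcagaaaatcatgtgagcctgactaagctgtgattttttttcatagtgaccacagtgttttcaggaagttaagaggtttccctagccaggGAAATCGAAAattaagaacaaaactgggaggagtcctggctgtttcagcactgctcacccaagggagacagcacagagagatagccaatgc
That of Ifi213 is chr1:173599223-173599522, minus strand, and that of Aim2 is chr1:173420354-173420653, plus strand.
Ifi213: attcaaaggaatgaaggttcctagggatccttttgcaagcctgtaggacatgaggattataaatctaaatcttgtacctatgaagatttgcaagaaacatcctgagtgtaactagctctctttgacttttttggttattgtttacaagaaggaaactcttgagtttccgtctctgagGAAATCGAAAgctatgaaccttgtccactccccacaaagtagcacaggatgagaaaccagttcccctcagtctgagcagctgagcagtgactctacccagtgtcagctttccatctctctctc
Aim2: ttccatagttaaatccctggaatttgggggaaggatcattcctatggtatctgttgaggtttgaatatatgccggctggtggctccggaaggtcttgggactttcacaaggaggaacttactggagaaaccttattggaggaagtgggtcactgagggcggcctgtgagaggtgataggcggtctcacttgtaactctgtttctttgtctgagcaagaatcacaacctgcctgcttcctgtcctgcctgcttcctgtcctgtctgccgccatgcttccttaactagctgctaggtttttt

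Of the 9 tested members, 8 were lower and 1, Ifi207, was higher with miR-497 at an edgeR adjusted p under 0.05. Over all tested genes 49.8% were called, 26.0% lower and 23.8% higher, so a call by itself is common in this comparison. A fall of at least 2-fold was found for 6 members (Ifi203, Ifi204, Mndal, Ifi209, Ifi211 and Cgas), against 5.19% of all tested genes; 0 members rose by at least 2-fold, against 3.63%. The median log2 fold change of the tested members was -1.34, against -0.02 over all tested genes. In all 9 tested members the 3 miR-497 libraries lay on one side of the 3 NC libraries, which was so for 57.4% of all tested genes (29.6% with miR-497 below and 27.8% with miR-497 above).

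**Figure D1:**
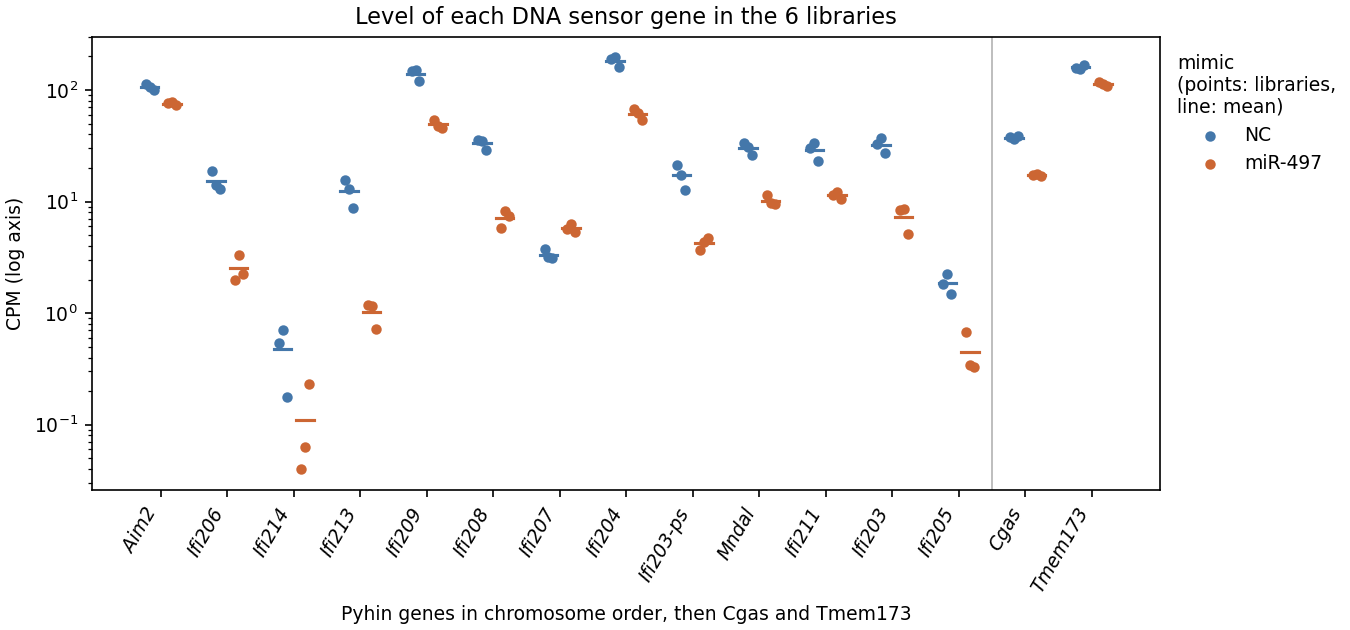
CPM on a log axis for 13 Pyhin genes in chromosome order and for Cgas and Tmem173 in each of the 6 libraries (points) with group means (lines); Ifi202b, with 0 counts in 5 libraries, is not drawn. In Ifi207 the miR-497 points lie above the NC points, in Ifi214 the groups overlap, and in the other 13 genes the miR-497 points lie below.

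Among the sensors that signal through Sting, Ifi204 (ENSMUSG00000073489), the mouse counterpart most often set beside human IFI16, had the highest level per length of the Pyhin genes in NC cells. Its level was 192, 196 and 162 CPM in NC libraries 1 to 3 and 67.0, 62.4 and 54.1 CPM in miR-497 libraries 1 to 3. The highest miR-497 library lay far below the lowest NC library, which was NC library 3. The mean went from 183 ± 18.4 to 61.1 ± 6.54 CPM (mean ± SD of 3 libraries), and the fitted log2 difference (miR-497 minus NC) was -1.59 (SE 0.0801; adjusted p = 1.1e-10 by edgeR), or 3.00-fold lower.

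Cgas (ENSMUSG00000032344, chr9:78430526-78443237, minus strand), the enzyme that makes cGAMP, was very even among replicates. It lay at 37.8, 36.2 and 38.5 CPM with NC and at 17.3, 17.6 and 16.9 CPM with miR-497. The groups were far apart next to their spread. The means of 37.5 ± 1.19 and 17.3 ± 0.349 CPM (± SD of 3 libraries) gave a fitted log2 difference of -1.12 (SE 0.0748; adjusted p = 3e-09 by edgeR), or 2.17-fold lower. In its 3' UTR of 2399 bases no site for miR-497-5p was found.

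Tmem173 (ENSMUSG00000024349), which encodes Sting, the receptor for cGAMP, changed less. Its level was 157, 153 and 168 CPM in NC libraries and 119, 113 and 109 CPM in miR-497 libraries, with no overlap. The mean went from 160 ± 7.73 to 114 ± 5.02 CPM (mean ± SD of 3 libraries), and the fitted log2 difference was -0.49 (SE 0.0554; adjusted p = 1.4e-06 by edgeR), or 1.41-fold lower. Tmem173 is the member with an 8mer, and its value lies below the 8mer median of -0.28. Aim2, the other member with a site, had a log2 difference of -0.50. The members without a site that fell ran from -1.12 (Cgas) to -2.14 (Ifi203), and Ifi207, also without a site, rose (0.79). The part of the sites in these values was not tested. Within each library the log2 ratio of Cgas to Tmem173 per length was -2.65, -2.68 and -2.72 with NC and -3.37, -3.27 and -3.28 with miR-497. The ratios of the 2 groups did not overlap (exact permutation test, 2-sided, p = 0.1, the smallest that 3 against 3 allows), so the enzyme lost more of its RNA than the receptor.

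Aim2 (ENSMUSG00000037860), the inflammasome-forming sensor at the outer end of the cluster, stood apart from its Pyhin neighbours by the small size of its change. It lay at 114, 106 and 101 CPM with NC and at 76.1, 78.2 and 72.8 CPM with miR-497. All miR-497 libraries were below all NC libraries. The means of 107 ± 6.51 and 75.7 ± 2.73 CPM (± SD of 3 libraries) gave a fitted log2 difference of -0.50 (SE 0.0605; adjusted p = 3.1e-06 by edgeR), or 1.41-fold lower. Per length, Aim2 was below Ifi204 in every NC library, by 0.66 to 0.86 on the log2 scale, and above Ifi204 in every miR-497 library, by 0.21 to 0.45.

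The next members are Ifi200 genes for which a role as a DNA sensor is less settled. Ifi209 (ENSMUSG00000043263, also named Pyhin1) lay at 148, 151 and 122 CPM with NC and at 53.9, 48.0 and 45.8 CPM with miR-497. Its fitted log2 difference was -1.51 (SE 0.0817; adjusted p = 2.3e-10 by edgeR), or 2.85-fold lower. As for Ifi204, NC library 3 was the lowest of its group and still stood above every miR-497 library. Mndal (ENSMUSG00000090272), named for its likeness to the human nuclear protein MNDA, went from 33.5, 31.1 and 25.9 CPM to 11.4, 9.69 and 9.44 CPM. Its fitted log2 difference was -1.57 (SE 0.110; adjusted p = 5.1e-09 by edgeR), or 2.98-fold lower.

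Ifi204, Ifi209 and Mndal kept nearly constant proportions to each other while they fell. The log2 ratio of Mndal to Ifi204 per length was -2.63 ± 0.0795 with NC and -2.61 ± 0.0893 with miR-497 (SD, n = 3; exact permutation test, p = 1), and that of Ifi209 to Ifi204 was -0.38 ± 0.0244 and -0.30 ± 0.0693 (SD, n = 3; exact permutation test, p = 0.3). Both ratios overlapped between the groups. With 3 libraries a group this does not show that the genes act alike.

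Ifi211 (ENSMUSG00000026536) lay at 30.2, 33.4 and 22.9 CPM with NC and at 11.6, 12.1 and 10.6 CPM with miR-497. The fitted log2 difference was -1.34 (SE 0.121; adjusted p = 1.1e-07 by edgeR), or 2.53-fold lower. This value is the least certain of the family in its identity, since 72.8% of the distinct 50-base words of its transcripts also occur in another gene's transcripts, most of them in Ifi205, and the handling of reads with several alignments was not stated.

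Ifi203 (ENSMUSG00000039997) had the largest fall of the members. It went from 32.9, 36.8 and 27.3 CPM with NC to 8.35, 8.56 and 5.11 CPM with miR-497, with a wide gap between the groups. The fitted log2 difference was -2.14 (SE 0.155; adjusted p = 7.5e-09 by edgeR), or 4.42-fold lower. Its log2 ratio to Ifi204 per length went from -3.42 ± 0.0834 to -4.00 ± 0.278 (± SD of 3 libraries; p = 0.1 by an exact permutation test, the lowest this design allows). Ifi203 therefore lost a larger part of its RNA than Ifi204 in these libraries.

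Ifi202b (ENSMUSG00000026535), whose protein has HIN domains but no pyrin domain and is known as an antagonist of Aim2, was near 0. It had 5 counts in NC library 1 and 0 counts in the other 5 libraries. A count of 0 allows up to 3 counts, or 0.0821 to 0.119 CPM over the libraries, a limit that covers counting error only. No change in Ifi202b could be seen at this depth, and no fold is given.

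Ifi207 (ENSMUSG00000073490, chr1:173723427-173741747, minus strand) was the only tested Pyhin gene that was higher with miR-497. It had 124, 116 and 88 counts in NC libraries and 143, 201 and 162 counts in miR-497 libraries, which are 3.74, 3.17 and 3.12 CPM and 5.69, 6.32 and 5.31 CPM. The highest NC library stayed below the lowest miR-497 library. The means of 3.35 ± 0.341 and 5.77 ± 0.511 CPM (± SD of 3 libraries) gave a fitted log2 difference of 0.79 (SE 0.186; adjusted p = 0.002 by edgeR), or 1.72-fold higher. Leaving out each library in turn gave 0.72 to 0.86, and the adjusted p was at most 0.0118 under all 13 alternatives.

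The neighbours of Ifi207 on both sides fell. Ifi208, the nearest Pyhin gene on one side, had a log2 fold change of -2.20, and Ifi204, the nearest on the other, of -1.59. The log2 ratio of Ifi207 to Ifi208 per length was -2.63, -2.83 and -2.60 with NC and 0.58, 0.23 and 0.13 with miR-497, so Ifi207 went from well below Ifi208 to above it in every library. Its log2 ratio to Ifi204 went from -5.72 ± 0.151 to -3.35 ± 0.136 (± SD of 3 libraries; p = 0.1 by an exact permutation test, the lowest this design allows). Of the 50-base words of Ifi207, 7.29% also occur in another gene, most often in Ifi204 (2.68%), and 0.790% of its 100-base words do. No other annotated gene shares exon bases with Ifi207.

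**Figure D2:**
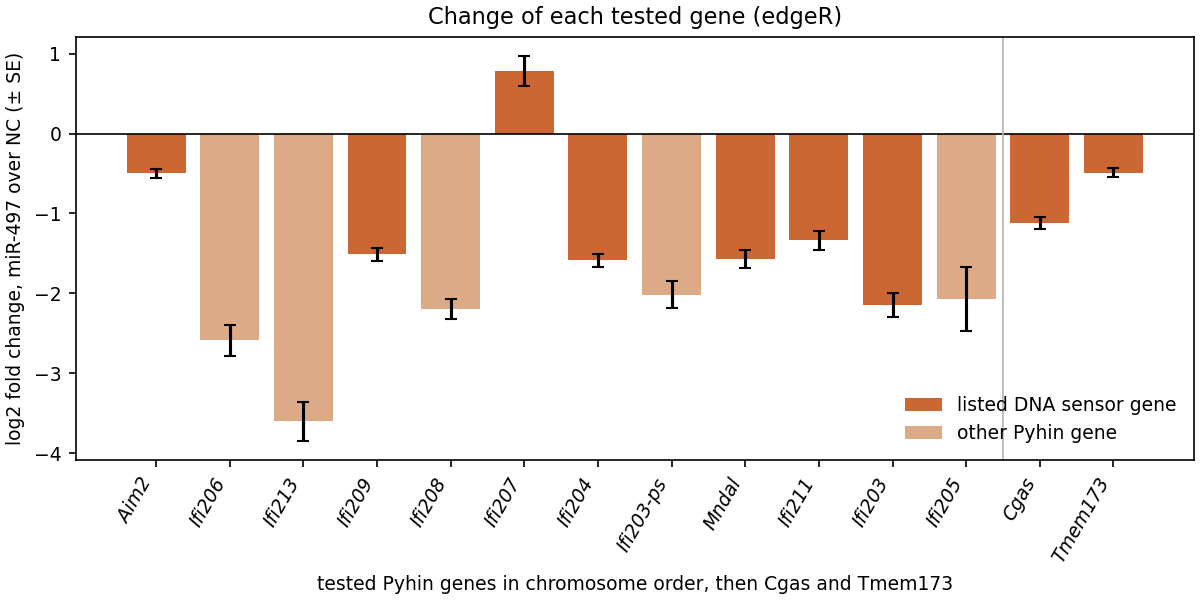
log2 fold change of miR-497 over NC with its standard error for the 12 tested Pyhin genes in chromosome order and for Cgas and Tmem173. Ifi207 is above 0, between Ifi208 at -2.20 and Ifi204 at -1.59, and Aim2 at -0.50 has the smallest fall of the cluster.

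The rest of the cluster was read the same way. From Aim2 to Ifi205 it covers chr1:173350879-174031810 in the GENCODE M21 annotation of GRCm38, the build in the submitters' processing notes, and holds 14 Pyhin genes. Of the 6 that are not members, 5 were tested, and all 5 were lower by at least 2-fold (median log2 fold change -2.20). Ifi213 (ENSMUSG00000073491) had the largest change of the cluster. It had 515, 475 and 246 counts with NC and 30, 37 and 22 counts with miR-497, without overlap, a fitted log2 difference of -3.60 (SE 0.242; adjusted p = 3.1e-09 by edgeR), or 12.2-fold lower. Ifi206 fell 6.01-fold (edgeR adjusted p = 1e-08), Ifi208 4.59-fold (edgeR adjusted p = 2.9e-10) and the pseudogene Ifi203-ps 4.05-fold (edgeR adjusted p = 5.3e-08). Ifi205, at only 10 to 82 counts, fell 4.19-fold (edgeR adjusted p = 0.00037). Ifi214 had 18, 26 and 5 counts with NC and 1, 2 and 7 counts with miR-497, overlapped between the groups and was not tested; without a filter on low counts its log2 fold change was -2.06 (edgeR adjusted p = 0.029).

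Reads of such close copies can be split or lost in counting. The share of 50-base words found in another gene was 12.4% for Ifi203, 33.7% for Ifi209 (nearly all in Ifi214), 19.6% for Mndal and 14.6% to 26.3% for the 6 other Pyhin genes. For Ifi204 it was 703 of 3512 words. It was 0.742% for Aim2, 4.68% for Cgas and 0% for Tmem173 and Ifi202b. The annotated exons of Mndal overlap those of Ifi203 and of 1 pseudogene on the same strand, over 4.27% of the bases of Mndal. These shares do not bound the error in the levels of the Ifi200 genes, because the copies differ in level. Ifi207, at 0.978 CPM per kilobase of exon with NC, shares 2.68% of its words with Ifi204, at 51.5. The part of shared reads in the levels and fold changes was not tested. The 8 other annotated genes in the interval had at most 24 counts in any library.

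Summed over the 14 Pyhin genes, the level was 647.5, 640.2 and 529 CPM in NC libraries and 247, 243 and 219 CPM in miR-497 libraries, without overlap. The make-up of this RNA shifted as well. Per length, Aim2 took 17.6%, 16.6% and 19.2% of the summed Pyhin RPKM (CPM per kilobase of exon) with NC and 30.3%, 31.6% and 32.5% with miR-497. Ifi207 went from 0.570% ± 0.0534 to 2.45% ± 0.154 and Ifi204 from 29.9% ± 0.658 to 24.9% ± 1.22 (SD, n = 3; exact permutation test, 2-sided, p = 0.1 for both, the smallest possible, among 23 such measures, none of which can pass an adjusted threshold). The share of Ifi211, 9.33% ± 0.861 and 9.32% ± 0.294, overlapped between the groups.

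**Figure D3:**
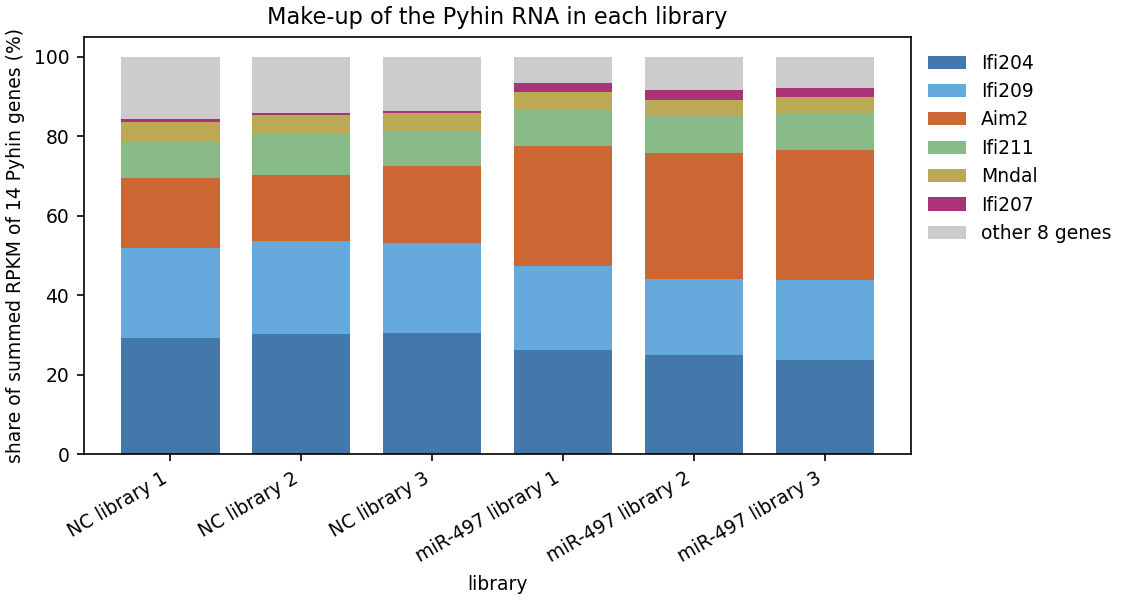
Share of the summed RPKM of 14 Pyhin genes taken by 6 members and by the other 8 genes together, in percent, in each of the 6 libraries. Aim2 takes 16.6% to 19.2% in NC and 30.3% to 32.5% in miR-497 libraries, and the thin band of Ifi207 widens from a mean of 0.570% to 2.45%.

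Across members, levels are compared per length. In NC libraries the order by mean RPKM was Tmem173 (58.2 ± 2.82), Ifi204 (51.5 ± 5.16), Ifi209 (39.5 ± 4.57), Aim2 (30.5 ± 1.86), Ifi211 (16.2 ± 3.01), Cgas (9.08 ± 0.290), Mndal (8.32 ± 1.07), Ifi203 (4.82 ± 0.713), Ifi207 (0.978 ± 0.0996) and Ifi202b. Of these neighbours, the ranges of Cgas and Mndal overlapped and the others did not. In miR-497 libraries Tmem173 (41.4 ± 1.83) was followed by Aim2 (21.6 ± 0.781), Ifi204 (17.2 ± 1.84) and Ifi209 (13.9 ± 1.19), with overlap between Ifi204 and Ifi209. Ifi207 (1.69 ± 0.149) then stood above Ifi203 (1.09 ± 0.288), where in NC cells it had stood below it. The level of Aim2 in miR-497 libraries exceeded that of every Ifi200 gene.

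The genes of likest pattern were looked for among 10225 genes outside the lists with a mean log2 CPM of at least 2. Likeness was the Euclidean distance over the 6 libraries between log2 CPM profiles set to 0 at the NC mean. For the mean of the tested Pyhin members the 3 nearest were Naa20 (distance 0.131), Abtb2 (0.150) and Crebl2 (0.159). This mean includes Ifi207, which rose, and Aim2, and lay at -1.024, -1.055 and -1.281 in miR-497 libraries 1 to 3. The Ifi200 members that fell had log2 fold changes from -1.34 (Ifi211) to -2.14 (Ifi203), so the mean stands for none of them singly. For Cgas they were Stub1 (0.0817), Gfpt2 (0.0888) and Usp25 (0.0933), and for Tmem173 Slc25a11 (0.0361), Klhl23 (0.0622) and Uba6 (0.0683). With 2 groups, such a distance mostly reads how alike the fold changes are.

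The members were then set beside the pathways they feed. The signalling arm was described by a list of 50 nucleic acid sensing and Sting signalling genes. Of these, 47 were tested, 22 were lower and 18 higher, with a median log2 fold change of -0.12. The shares over all tested genes were 26.0% lower and 23.8% higher, so calls in both directions were more frequent in this list. No common direction was seen over the list. Tbk1, the kinase that Sting recruits, went from 93.1 ± 4.60 to 67.7 ± 4.25 CPM (± SD of 3 libraries; fitted log2 difference -0.46, SE 0.0640, adjusted p = 1.4e-05 by edgeR). Irf3, the factor it phosphorylates, went from 53.7 ± 2.14 to 37.7 ± 1.49 CPM (± SD of 3 libraries; fitted log2 difference -0.51, SE 0.0686, adjusted p = 9.9e-06 by edgeR). In both genes the groups did not overlap. Others of the arm, named after their values were seen, went either way: Ikbke, the kinase most like Tbk1, was 1.48-fold higher (edgeR adjusted p = 0.0038), Traf6 1.23-fold higher (edgeR adjusted p = 0.0045), and Traf3 had a fitted log2 difference of -0.91 (edgeR adjusted p = 4.9e-08).

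Of the 47 tested genes of this list, 5 changed by at least 2-fold, and all 5 were lower. Among all tested genes 5.19% were lower and 3.63% higher by at least 2-fold. Nlrc5, a regulator of MHC class I genes, was 16.7-fold lower, Zbp1, a sensor of Z-form nucleic acids, 12.6-fold, and Usp18, which removes Isg15 and restrains interferon receptor signalling, 11.4-fold. Ddx58, the RNA sensor RIG-I, was 2.68-fold and Nlrx1, a mitochondrial member of the NLR family, 2.57-fold lower. Their edgeR adjusted p-values ran from 5.1e-13 for Usp18 to 0.00072 for Nlrx1. Ddx58 and Usp18 had means of 286 and 115 CPM with NC, while Zbp1, Nlrc5 and Nlrx1 were under 7 CPM there. With miR-497, Nlrc5 had 8 to 15 and Zbp1 11 to 16 counts per library, so the size of these folds rests on few reads.

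The genes listed for DNA and cyclic dinucleotide handling did not move together. Not all of them are enzymes that act on DNA or cyclic dinucleotides: the list also holds Adar, Banf1, Slc19a1, Abcc1, Lrrc8a and Lrrc8c. Of 17 listed, 14 were tested, 3 were lower, 4 were higher and 7 did not pass the test, with a median log2 fold change of -0.18. The shares over all tested genes were 26.0% lower and 23.8% higher. Samhd1, which breaks down the nucleotides needed for DNA synthesis, went from 107 ± 3.10 to 49.1 ± 3.10 CPM (± SD of 3 libraries; fitted log2 difference -1.12, SE 0.0628, adjusted p = 3.4e-10 by edgeR). Dnase1l1, a relative of DNase I, went from 3.57 ± 0.405 to 9.57 ± 1.00 CPM (± SD of 3 libraries; fitted log2 difference 1.42, SE 0.160, adjusted p = 1.3e-06 by edgeR). Trex1, the exonuclease that clears cytosolic DNA, was listed at 0 in all 6 libraries; 100% of its exon bases overlap Atrip on the same strand, so that value says nothing of its level.

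The inflammasome arm of Aim2 was described by 18 matched genes, of which 13 were tested, 8 were lower and 0 higher (median log2 fold change -0.41; 8 had an unadjusted p under 0.05). Over all tested genes 26.0% were lower and 23.8% higher, and 2 of the 8 are Pyhin genes counted above. Pycard, the adaptor that links Aim2 to caspase-1, had 0 to 15 counts per library and was not tested. Casp1 lay at 75.7 ± 5.86 and 73.2 ± 3.74 CPM (± SD of 3 libraries; fitted log2 difference -0.05, SE 0.0679, adjusted p = 0.571 by edgeR). The pore-forming Gsdmd lay at 29.1 ± 2.61 and 27.7 ± 3.95 CPM (± SD of 3 libraries; fitted log2 difference -0.07, SE 0.0990, adjusted p = 0.569 by edgeR). Neither passed the test, and each group's range overlapped the other.

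The 5 genes of this list with at least a 2-fold fall were Ifi208 and Ifi213, listed there under their names Pydc3 and Pydc4 and already described, and 3 interferon-inducible GTPases that are known to help release DNA from bacteria. Gbp2 went from 107 ± 8.51 to 16.9 ± 2.10 CPM (± SD of 3 libraries; fitted log2 difference -2.66, SE 0.0886, adjusted p = 7e-13 by edgeR). Gbp5 was 8.27-fold lower (edgeR adjusted p = 5.4e-08) and Gm12250, also named Irgb10, 15.1-fold lower (edgeR adjusted p = 2.2e-09). Gm12250, annotated in GENCODE M21 as a processed pseudogene, had only 10 to 19 counts in the miR-497 libraries.

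The last list held interferons, their receptors and the factors of interferon signalling. Of 20 genes, 15 were tested, 9 were lower and 4 higher, with a median log2 fold change of -0.54. Usp18 is among the 9 and was already counted in the Sting signalling list. The shares over all tested genes were 26.0% lower and 23.8% higher. Stat2, a subunit of the factor that binds the response element, went from 161 ± 11.8 to 40.5 ± 1.45 CPM (± SD of 3 libraries; fitted log2 difference -1.99, SE 0.0646, adjusted p = 5.1e-13 by edgeR). Irf9 fell by 2.31-fold (edgeR adjusted p = 2.5e-09) and Irf7 by 7.32-fold (edgeR adjusted p = 8.3e-13). Their part in the levels of the Ifi200 genes was not tested. The receptor subunits did not fall. Ifnar1 lay at 152 ± 12.5 and 172 ± 6.20 CPM (± SD of 3 libraries; fitted log2 difference 0.18, SE 0.0605, adjusted p = 0.0205 by edgeR) and Ifnar2 at 16.8 ± 0.502 and 21.7 ± 1.92 CPM (± SD of 3 libraries; fitted log2 difference 0.37, SE 0.0918, adjusted p = 0.0032 by edgeR). The call of Ifnar1 was lost without NC library 1 (edgeR adjusted p = 0.146), without NC library 2 (0.123) and without miR-497 library 2 (0.0878). Ifnb1, the gene for interferon beta, had 9, 26 and 4 counts with NC and 0, 7 and 0 counts with miR-497 and was not tested. Its groups overlapped. Ifna4, named after its values were seen, had 2, 11 and 5 counts with NC and 0 in each miR-497 library, without overlap. It was not tested either, and since a count of 0 allows up to 3, the 2 counts of NC library 1 are not clearly apart.

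**Figure D4:**
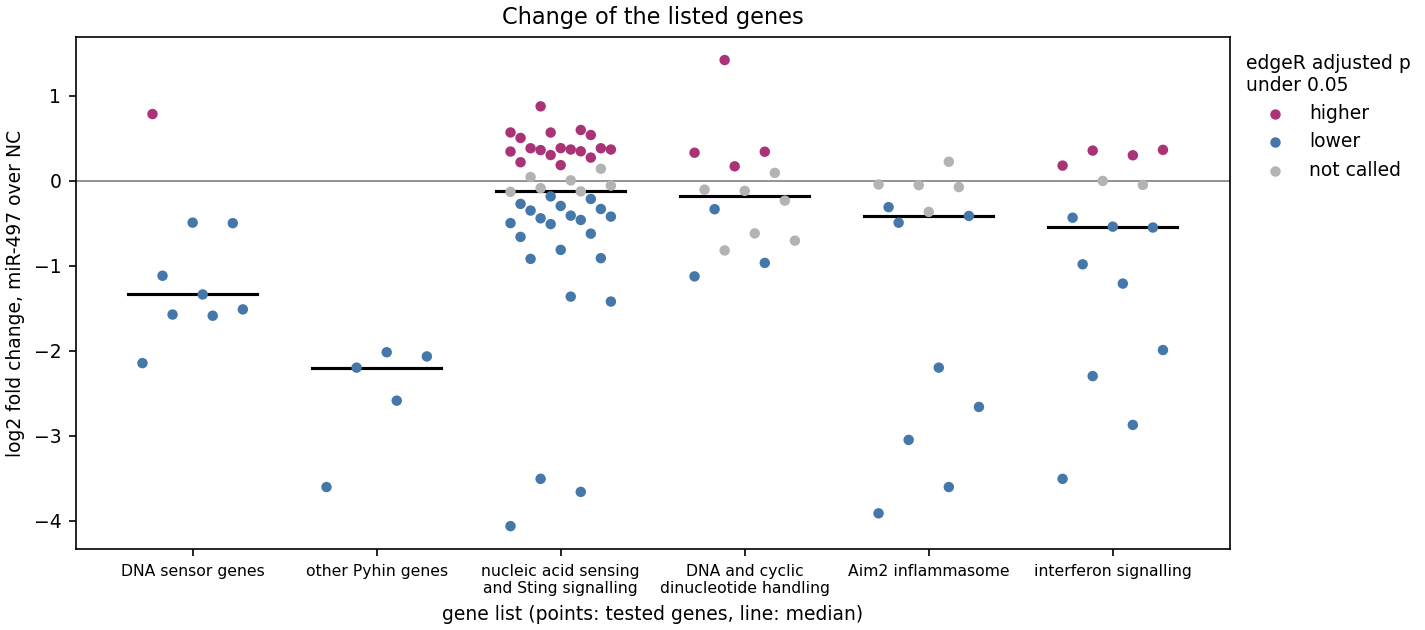
log2 fold change of miR-497 over NC for the tested genes of 6 lists (points, coloured by the edgeR call) with each list's median (line). The DNA sensor genes and other Pyhin genes have medians of -1.34 and -2.20, with Ifi207 as the single higher point, while the medians of the signalling and DNA handling lists are -0.12 and -0.18.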

How the data were processed

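The authors deposited raw counts of reads per Ensembl gene, 1 column per library. The submitters' processing notes list STAR 2.5.4b, featureCounts, Subread 1.6.1, edgeR 3.32.1 and GRCm38; strand setting, annotation release and the handling of multiply aligned reads were not given in the sources used here. Symbols, exons and 3' UTRs came from GENCODE M21 (GRCm38), which matched 55141 of 55401 identifiers; older symbols were resolved through RefSeq, and 1 listed symbol was unmatched. The RefSeq table held promoters of 12 Pyhin genes and Cgas.

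From these counts, edgeR 4.0.16 in R 4.3.3 was run with filterByExpr (minimum count 10, minimum total 15), TMM and a quasi-likelihood F-test with the group as the only term, 2-sided, with Benjamini-Hochberg adjustment over all 14661 tested genes and a threshold of 0.05. The SE is the size of the log2 fold change divided by the square root of F. CPM uses TMM-scaled library sizes; RPKM is CPM per kilobase of merged exons. Log2 CPM had a prior count of 2. Shared words were counted over all M21 transcripts, both strands, without introns.

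The members and lists were chosen with earlier results of these data known. Named were every member and other tested Pyhin gene, list genes called with at least 2-fold change and a mean log2 CPM of at least 0, 13 pathway genes whatever their values (1 of them is not reported here), and the genes of likest pattern; others, and the window word, were chosen after their values were seen. Alternatives were DESeq2 size factors, upper-quartile scaling, no filter, a mean count of 50, DESeq2 1.42.0, limma 3.58.1 voom, the replicate block and each library left out. The fit was tested on simulated data.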

Additional observations from a re-analysis of the deposited data

How the results depend on the processing

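The 9 tested members kept their direction and their call in all 117 pairs of member and alternative. Of the other named genes, 437 of 441 pairs kept both. Gsdmd, not called, ran from -0.179 to 0.0224 when single libraries were omitted, with the sign changed to 0.0224 without miR-497 library 1, and Ifnar1 lost its call in 3 fits that left out 1 library, given above; the cause was not tested. The counts of called genes over all genes and in each list stayed within 1.5 times their main values. Upper-quartile scaling gave 3998 higher and 3422 lower genes against 3490 and 3817, and moved the median log2 fold change of all genes from -0.02 to 0.03. With the replicate block, 8 members were lower and 1 higher, as without it; over all genes 3177 were higher and 3563 lower. Deviations of same-numbered libraries correlated at -0.119, -0.0351 and -0.133, so no pairing by number was seen. So few libraries cannot exclude a weak one. The filter at a mean count of 50 gave no value for Ifi205. At 88 to 201 counts, Ifi207 has the largest SE of the tested members.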
